A study of Mus musculus with 9 samples.

Results

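The genes of oxidative phosphorylation were examined in splenic B cells of 9 mice, profiled by RNA-sequencing. Members were taken by gene symbol from the deposited gene table of 22174 genes. The rule kept symbols of nuclear subunits of complexes I to V (Ndufa, Ndufb, Ndufc, Ndufs, Ndufv, Sdha to Sdhd, Uqcr, Cox4 to Cox8 and Atp5) and the protein-coding genes of mitochondrial DNA. It found 108 genes, of which 95 are nuclear and 13 are mitochondrially encoded. Because it works on names, it also took in 8 assembly factors of complex I (Ndufaf genes), the paralog Ndufa4l2 and the supercomplex factor Cox7a2l, while Cyc1, a subunit of complex III with another kind of name, fell outside it. The rule also kept Ndufb1-ps, annotated as a non-coding gene and counted here with the accessory subunits of complex I.

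Oxidative phosphorylation couples the oxidation of NADH and succinate to ATP synthesis across the inner mitochondrial membrane: complexes I and II take in electrons, complexes III and IV pass them to oxygen, and complex V uses the resulting proton gradient to make ATP. All complexes but II combine subunits imported from the cytosol with subunits translated inside the mitochondrion, so the nuclear and mitochondrial transcripts come from separate genomes with separate polymerases. Mitochondrial DNA is transcribed as long precursors that are cut into single messages, which turn over at different rates.

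The wildtype mice were littermates that lacked the hMTCP1 transgene. Eµ-MTCP1 mice carry a human MTCP1 cDNA and Eµ-TCL1 mice a human TCL1 gene, in both cases driven in B cells by the immunoglobulin µ enhancer. All 9 mice were of the strain labelled C57/BL6NTac, with 3 mice a group; the transgenic mice were age-matched and had reached a significant disease burden, and the Eµ-MTCP1 mice came from founder line Z36. Splenic B cells were enriched by negative selection. Reads assigned to genes ranged from 6447542 to 8033303 per library. On the deposited log2-like scale, human TCL1A lay at 14.9 to 15.6 in Eµ-TCL1 mice and 6.04 to 6.96 elsewhere, and human MTCP1 at 11.1 to 12.3 in Eµ-MTCP1 mice and 5.85 to 6.19 elsewhere. The 6 B-cell markers summed to between 6986 and 10624 CPM (the reads of a gene scaled to a common library size) in every library, and none was at 0. The 5 granulocyte markers summed to 2234 CPM in wildtype mouse Z2755 and 1601 CPM in Eµ-MTCP1 mouse Z2641, and to between 14.7 and 267 CPM in the other 7 libraries. The library of Z2755 was also the only one read on another sequencing lane. In bulk samples such as these, fewer cells of a type and less RNA per cell cannot be told apart.

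Of the 108 members, 101 had enough reads to be tested, 88 of the 95 nuclear and all 13 mitochondrially encoded. The 7 that were not tested were Ndufa4l2, Cox4i2, Cox7a1, Cox7b2, Cox8b, Cox8c and a second gene entry for Atp5o. They were compared among all 11165 genes tested with the quasi-likelihood test of edgeR, and a member was called at an adjusted p under 0.05 over all of these genes.

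Most nuclear transcripts had a slightly higher mean level in both leukemias than in wildtype B cells, while few single genes passed the test. No test of the group as a whole was made. In Eµ-MTCP1 mice 5 of 88 nuclear members rose and 0 fell, against 5.49% of all genes tested that rose and 3.99% that fell. In Eµ-TCL1 mice 3 of 88 rose and 0 fell, against 5.07% and 4.13% of all genes. The shares of members called higher were 5.68% and 3.41%, near or under those of all genes, and they depended on the test and the libraries. With DESeq2, 15 and 8 members rose (17.05% and 9.09%, against 8.36% and 8.28% of all genes). Without wildtype mouse Z2785, 10 rose in Eµ-MTCP1 mice (11.4%, against 3.804%), and without Z2755 or Z2551 only 1 did (1.14%, against 2.602% and 3.017%). In Eµ-TCL1 mice 0 rose without Z2754 or Z2755, against 2.26% and 2.47% of all genes. At an unadjusted p under 0.05, 26 and 20 nuclear members were higher, against 13.5% and 13.2% of all genes, and 0 were lower in either comparison, against 11.5% and 11.9%, and DESeq2 likewise called 0 lower.

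Most nuclear members shared a small displacement. Against wildtype, 71 of 88 had a log2 fold change above 0 in Eµ-MTCP1 mice, with a median of 0.30, where 48.6% of all genes lay above 0 with a median of -0.02. In Eµ-TCL1 mice 73 of 88 lay above 0 with a median of 0.25, where 49.3% of all genes did with a median of -0.0095. All 3 Eµ-MTCP1 values exceeded all 3 wildtype values for 32 nuclear members, against 14.7% of all genes, and for 0 members was it the other way round, against 15.3% of all genes. In Eµ-TCL1 mice 22 members lay wholly above wildtype, against 16.6% of all genes, and 2 wholly below, against 16.1%. Members share libraries and are not independent of each other, and both comparisons share the wildtype mice, so these counts are a description.

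The size of the displacement depended on scaling, because the median of all genes moved as well. When libraries were scaled by total reads alone, the median of all genes shifted to -0.26 in Eµ-MTCP1 and -0.15 in Eµ-TCL1 mice, and that of the nuclear members to 0.07 and 0.11. Then 52 and 63 of the 88 lay above 0, against 34.2% and 40.3% of all genes. Measured from the median of all genes, the nuclear members lay 0.32 higher in Eµ-MTCP1 mice under either scaling and 0.26 higher in Eµ-TCL1 mice. Leaving out any 1 library kept this difference between 0.26 and 0.41 in Eµ-MTCP1 and between 0.20 and 0.36 in Eµ-TCL1 mice.

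**Figure D1:**
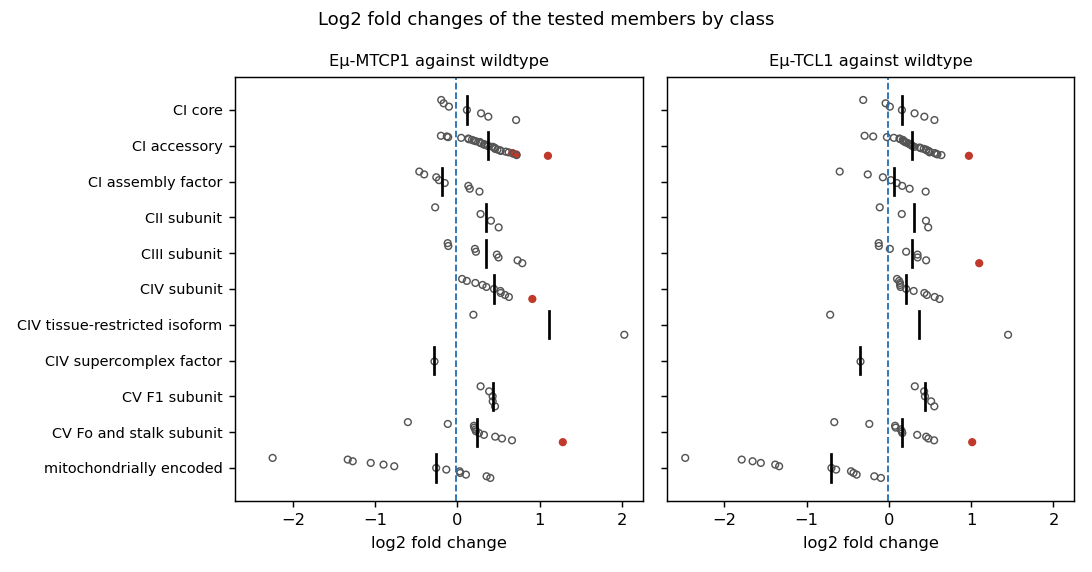
Log2 fold change (horizontal axis) of each tested member against wildtype, by class (rows), in Eµ-MTCP1 mice at left and Eµ-TCL1 mice at right. Open circles are members that did not pass the test, filled red circles those that did, short bars class medians, and the dashed line is the median of all 11165 genes tested. Most nuclear classes lie to the right of the line, whereas the mitochondrially encoded members spread far to the left.

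Classes differed in how evenly they were displaced. All 11 widely expressed complex IV subunits had a log2 fold change above 0 in both comparisons, with medians of 0.45 in Eµ-MTCP1 and 0.21 in Eµ-TCL1 mice. The 5 subunits of the catalytic F1 part of complex V did so too, between 0.28 and 0.46 in Eµ-MTCP1 and between 0.31 and 0.55 in Eµ-TCL1 mice. Among the 30 accessory subunits of complex I, which surround its catalytic core, 27 lay above 0 in each comparison, with medians of 0.37 and 0.28. The 7 nuclear core subunits, which carry the flavin and iron-sulfur centers, showed less of it: 4 and 5 lay above 0, with medians of 0.12 and 0.16. In complex II, which has no mitochondrially encoded subunit, 3 of 4 members lay above 0 in both, and in complex III 6 of 8 did. The 8 Ndufaf assembly factors, which are not part of the finished complex, had medians of -0.19 and 0.06, with 3 and 5 above 0. No test between the classes was made.

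Of the genes that passed the test, Ndufb9 (chr15:58933756-58939488, plus strand, build GRCm38 as are the positions of the other genes), an accessory subunit of complex I, had the smallest adjusted p among the nuclear members in both comparisons. It was measured at 112, 112 and 133 CPM in wildtype, 203, 279 and 284 CPM in Eµ-MTCP1 and 187, 256 and 257 CPM in Eµ-TCL1 mice. Every leukemic sample lay above every wildtype one, and the 2 leukemias overlapped. It rose by 1.10 on the log2 scale (SE 0.21, adjusted p = 0.00821) in Eµ-MTCP1 and by 0.97 (SE 0.20, adjusted p = 0.0148) in Eµ-TCL1 mice. The call in Eµ-MTCP1 mice held in all 18 alternatives, with adjusted p between 1.42e-05 and 0.0442. In Eµ-TCL1 mice it was lost without C1594, Z2754 or Z2755, at 0.0587 to 0.0691.

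Atp5g2 (chr15:102662864-102672352, minus strand) rose in both comparisons as well. It is 1 of 3 genes for subunit c of complex V, whose ring turns as protons pass; the 3 encode the same mature protein with different import sequences. Its levels were 125, 197 and 255 CPM in wildtype, 394, 496 and 514 CPM in Eµ-MTCP1 and 297, 397 and 470 CPM in Eµ-TCL1 mice, again without overlap between wildtype and either leukemia. The log2 fold change was 1.28 (SE 0.28, adjusted p = 0.0182) in Eµ-MTCP1 and 1.01 (SE 0.28, adjusted p = 0.0488) in Eµ-TCL1 mice. The first call was lost without Z2551, Z2754 or Z2755 (adjusted p of 0.061 to 0.0774) and the second without any 1 of 7 libraries, all but B4376 and Z2785 (0.0561 to 0.155). The second was also lost in 5 settings that keep every library, at 0.0530 with RLE size factors, 0.0570 with library size only, 0.0620 on the standard mouse reference, 0.0502 without immunoglobulin genes and 0.0539 without mitochondrial genes. The other genes for the same protein did not pass: Atp5g1 had log2 fold changes of 0.66 and 0.55 (adjusted p = 0.0579 and 0.108) and Atp5g3 of 0.22 and 0.48 (adjusted p = 0.582 and 0.221). Per length, Atp5g2 was at 450 ± 100 TPM (a share of all transcripts that takes account of their length; SD, n = 3) in wildtype, 889 ± 132 in Eµ-MTCP1 and 813 ± 182 in Eµ-TCL1 mice. Atp5g1 stood at 372 ± 44.0, 464 ± 53.8 and 487 ± 35.1 TPM in the same order, and Atp5g3 at 265 ± 8.17, 249 ± 50 and 319 ± 72.9 TPM.

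Uqcr11 (chr10:80402997-80406830, minus strand), a small subunit of complex III, rose in Eµ-TCL1 mice by 1.10 on the log2 scale (SE 0.24, adjusted p = 0.0176). Wildtype values were 23.9, 32.6 and 33.4 CPM and Eµ-TCL1 values 49.9, 56.4 and 85.8 CPM, with the 3 Eµ-MTCP1 mice at 46.1, 54.1 and 55.1 CPM. Both leukemias lay wholly above wildtype, although in Eµ-MTCP1 mice the log2 fold change of 0.79 had an adjusted p of 0.0668. The call was lost without B4437, Z2754 or Z2755, at 0.0568 to 0.0772.

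Cox6c (chr15:35925886-35938246, minus strand), a small subunit of complex IV, rose in Eµ-MTCP1 mice by 0.91 (SE 0.19, adjusted p = 0.0157), from 44.3, 57.0 and 60.3 CPM in wildtype to 87.9, 104 and 112 CPM. The Eµ-TCL1 values of 70.1, 86.4 and 90.7 CPM also lay above all wildtype values, with a log2 fold change of 0.61 and an adjusted p of 0.0744. Without Z2551, Z2641 or Z2755 the adjusted p in Eµ-MTCP1 mice was 0.053 to 0.0827.

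The accessory complex I subunits Ndufa6 (chr15:82350140-82354322, minus strand) and Ndufs5 (chr4:123712710-123718202, minus strand) passed more narrowly in Eµ-MTCP1 mice. Ndufa6 stood at 87.4, 116 and 127 CPM in wildtype, 164, 190 and 190 CPM in Eµ-MTCP1 and 155, 168 and 170 CPM in Eµ-TCL1 mice, a log2 fold change of 0.72 (SE 0.18, adjusted p = 0.0328) and 0.58 (adjusted p = 0.0739). Ndufs5 stood at 33.5, 38.4 and 47.9 CPM, 60.8, 64.5 and 65.1 CPM and 57.2, 62.9 and 66.1 CPM in the same order, a log2 fold change of 0.67 (SE 0.18, adjusted p = 0.0447) and 0.64 (adjusted p = 0.0538). Wildtype overlapped with neither leukemia for either gene. The call of Ndufa6 was lost without B4437, Z2551, Z2606, Z2641, Z2754 or Z2755 (adjusted p of 0.0543 to 0.137), and that of Ndufs5 without any library but Z2785 (0.0614 to 0.153). Ndufa6 was also lost with library size only (0.0851), and Ndufs5 with library size only (0.133), without the filter on low counts (0.0685), with the deposited gene count table (0.0903) and on the standard mouse reference (0.114).

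**Figure D2:**
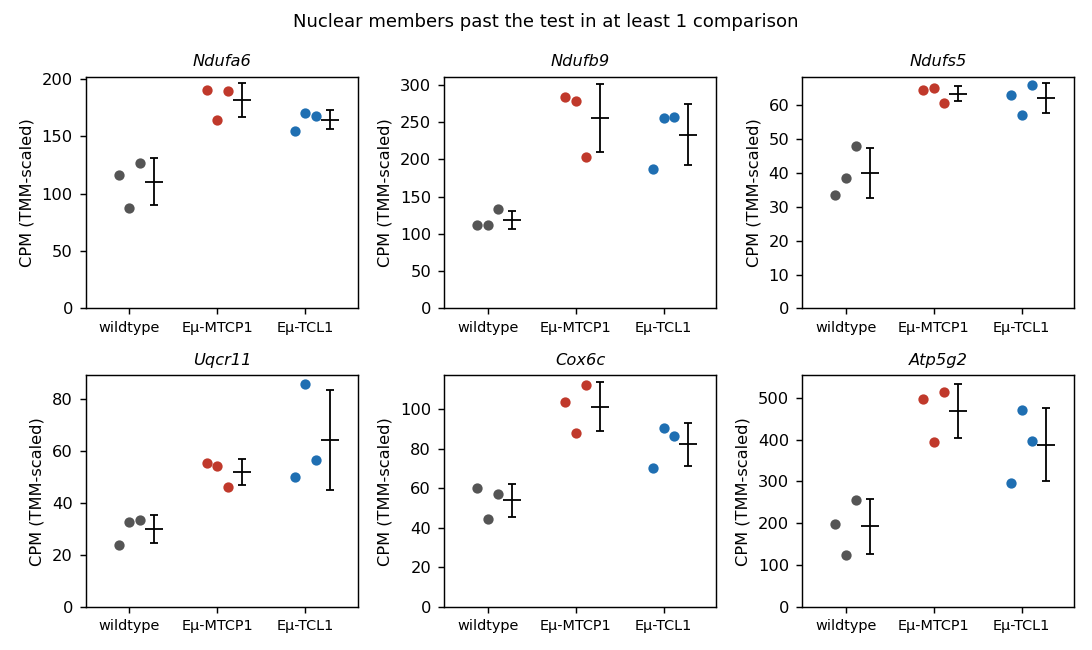
Level in CPM, scaled by TMM factors (vertical axis from 0), of the 6 nuclear members that passed the test in at least 1 comparison with wildtype. Points are mice, and bars beside them the mean and SD of 3 mice; every leukemic mouse lies above every wildtype mouse in all 6 panels, and Eµ-MTCP1 and Eµ-TCL1 mice overlap.

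The windows around the transcription starts of these genes are shown for the 4 called genes that have one. Any window placed on another chromosome than its gene was not printed but stays in the counts of windows below. Promoters from RefSeq (build GRCm38.p6, 250 bases before to 50 after the start) were matched by symbol to 75 of the 94 nuclear symbols, in 80 windows; Ndufb9 and Cox6c had no match by symbol. The following stretches run from 120 bases before the start to 20 after it, on the minus strand, with the letters of the NRF1, ETS and YY1 motifs in capitals wherever they occur and those of the SP1 motif left in lower case.
Ndufa6, chr15:82354272-82354411: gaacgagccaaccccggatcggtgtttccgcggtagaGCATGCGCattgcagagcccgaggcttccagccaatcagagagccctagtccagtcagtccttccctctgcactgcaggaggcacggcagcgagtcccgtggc
Ndufs5, chr4:123718167-123718306: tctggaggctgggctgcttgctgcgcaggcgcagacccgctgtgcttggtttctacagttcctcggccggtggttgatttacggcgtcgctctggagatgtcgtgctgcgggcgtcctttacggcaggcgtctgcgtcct
Uqcr11, chr10:80406802-80406941: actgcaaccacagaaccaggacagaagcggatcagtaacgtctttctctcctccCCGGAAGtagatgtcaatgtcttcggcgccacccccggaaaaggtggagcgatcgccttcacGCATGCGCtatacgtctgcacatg
Atp5g2, chr15:102671028-102671167: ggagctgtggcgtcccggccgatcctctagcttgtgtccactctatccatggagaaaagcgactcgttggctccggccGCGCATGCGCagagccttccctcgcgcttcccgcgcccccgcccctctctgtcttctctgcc

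The capitals found are letters of the kind bound by NRF1 (GCGCATGC or its reverse complement GCATGCGC), a factor long tied to genes of respiration, and by ETS factors (CCGGAAG or CTTCCGG). In Atp5g2 the NRF1 letters matched on both strands at overlapping positions. The stretch of Ndufs5 held neither. Over all windows of nuclear members, 12 of 80 held the NRF1 letters (15%, against 2.71% of all 32851 windows in the table) and 19 of 80 the ETS letters (23.8%, against 8.86%). The letters AAGATGGC of the YY1 motif, searched on both strands, were in 10 of 80 (12.5%, against 2.75%), and GGGCGG, of the kind bound by SP1, in 35 of 80 (43.8%, against 35.7%). A match of letters is a description of the sequence and was not related to the fold changes.

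By level per length, the nuclear members with the highest mean TPM over all libraries were Uqcr11 (1393), Atp5e (1166), Cox8a (1165), Cox4i1 (1007) and Uqcr10 (785). Uqcr10, a complex III subunit, lay wholly above wildtype in Eµ-MTCP1 mice, at 57.1, 62.8 and 71.7 CPM against 30.8, 38.3 and 46.2 CPM, with a log2 fold change of 0.73 and an adjusted p of 0.051. In Eµ-TCL1 mice its values of 44.8, 44.8 and 57.1 CPM overlapped with wildtype. Cox4i1, the regulatory subunit of complex IV, had log2 fold changes of 0.53 (SE 0.24) and 0.14 (SE 0.24), Cox8a of 0.31 and 0.21, and Atp5e, the smallest F1 subunit, of 0.39 and 0.31. None of these 4 passed the test.

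Complex IV subunits that exist in tissue-restricted forms were read almost wholly from the widely expressed gene. Cox4i2 had 0 to 2 reads per library and Cox7a1 0 to 6, while Cox7b2, Cox8b and Cox8c had 0 in every library. At these depths 0 reads says only that the transcripts were not detected. Their partners Cox4i1, Cox7a2, Cox7b and Cox8a were at 990 ± 166, 352 ± 28.9, 272 ± 20.4 and 1184 ± 144 TPM (SD, n = 3) in wildtype mice. Cox7b had log2 fold changes of 0.45 and 0.56 (adjusted p = 0.174 and 0.095) and Cox7a2 of 0.35 and 0.12. Cox6a2, the form of muscle and heart, was read at 0, 0.217 and 0.906 CPM in wildtype, 1.48, 1.49 and 1.56 CPM in Eµ-MTCP1 and 0.246, 1.38 and 1.40 CPM in Eµ-TCL1 mice. The Eµ-MTCP1 values lay close together and above wildtype, but at so few reads the log2 fold change of 2.03 had an SE of 1.08 and an adjusted p of 0.272, and its partner Cox6a1 was at 629 ± 147 TPM against 1.91 ± 2.24 TPM in wildtype mice. Cox6b2, the testis form, was at 6.84 ± 7.72 TPM in wildtype against 646 ± 148 TPM for Cox6b1, at 0 to 2.06 CPM over all libraries and with log2 fold changes of 0.20 and -0.71, both smaller than their SE of 1.23 and 1.26. Ndufa4, which is now counted with complex IV, was at 438 ± 142 TPM in wildtype and had log2 fold changes of 0.12 and 0.14, while its hypoxia-responsive paralog Ndufa4l2 had 1 read in 1 library.

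The mitochondrially encoded members showed a different picture, set by single mice. They took 2.91, 3.57 and 10.8% of the assigned reads in wildtype, 3.53, 4.02 and 8.02% in Eµ-MTCP1 and 3.56, 3.63 and 4.57% in Eµ-TCL1 mice. The highest share belonged to wildtype mouse Z2754 and the next to Eµ-MTCP1 mouse Z2641, and the groups overlapped. The nuclear members took 1.03, 1.14 and 1.16% in wildtype, 1.21, 1.24 and 1.29% in Eµ-MTCP1 and 1.15, 1.24 and 1.46% in Eµ-TCL1 mice. Here Z2754 had the lowest share of all 9 libraries, so its ratio of mitochondrial to nuclear reads was 10.4, against 6.46 in Z2641 and 2.50 to 3.15 in the other 7.

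**Figure D3:**
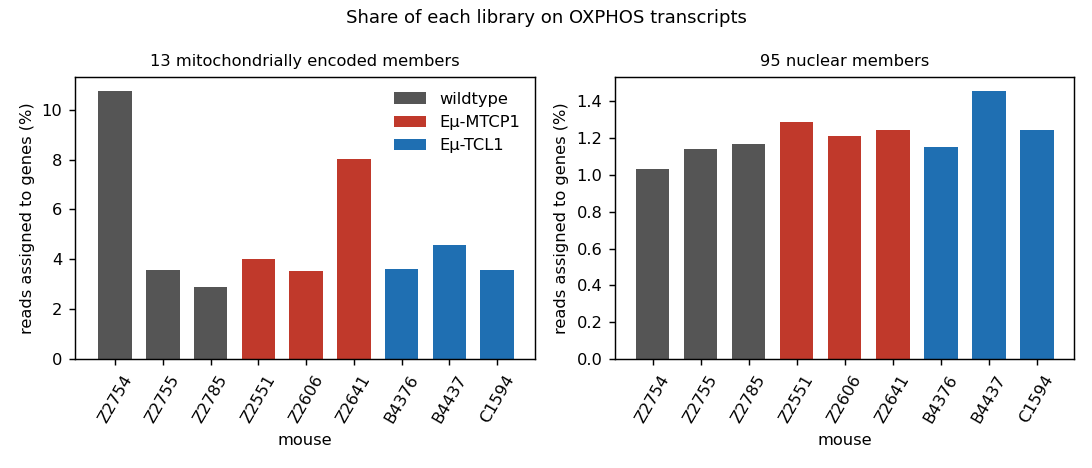
Share of reads assigned to genes (percent, vertical axis from 0) that fell on the 13 mitochondrially encoded members (left) and the 95 nuclear members (right), with 1 bar per mouse, colored by group. Wildtype mouse Z2754 (10.8%) and Eµ-MTCP1 mouse Z2641 (8.02%) stand above the other 7 mice at left and not at right.

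No mitochondrially encoded member passed the test in any comparison. In Eµ-MTCP1 mice their median log2 fold change against wildtype was -0.26, with 5 of 13 above 0 and 1 member, mt-Nd3, at an unadjusted p under 0.05. In Eµ-TCL1 mice the median was -0.70, with 0 of 13 above 0 and 3 at an unadjusted p under 0.05 (mt-Nd2, mt-Nd3 and mt-Nd6). DESeq2 called 0 in both, with 0 at an unadjusted p under 0.05. These signs rested on mouse Z2754: without it the medians were 0.71 and 0.17, with 13 and 11 of 13 above 0, 4 and 0 at an unadjusted p under 0.05, the 4 of them higher, and 0 called. Without Z2641 the median in Eµ-MTCP1 mice was -0.67.

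The 2 mice with high shares differed in which messages were raised. Relative to the mean of the other 2 wildtype mice, Z2641 was between 1.96-fold (mt-Nd3) and 3.30-fold (mt-Co1) higher, a narrow range. In Z2754 the ratio ran from 2.46 (mt-Co3) to 15.98 (mt-Nd3). Its 13 members fell into a lower set of 7 at 2.46 to 3.74 (mt-Co3, mt-Cytb, mt-Co1, mt-Nd4, mt-Nd5, mt-Nd4l and mt-Co2) and a higher set of 6, namely mt-Nd1 at 6.35, mt-Nd6 at 6.88, mt-Nd2 at 7.37, mt-Atp6 at 7.89, mt-Atp8 at 9.72 and mt-Nd3 at 15.98. The split was seen in the values and not tested. In the other 5 leukemic mice the ratios ran from 0.67 to 1.65 over all members.

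mt-Nd3, a core subunit of complex I, illustrates the first mouse: it was read at 31.4 and 32.9 CPM in wildtype mice Z2755 and Z2785 and at 514 CPM in Z2754. The Eµ-MTCP1 mice had 22.5, 36.4 and 63.1 CPM and the Eµ-TCL1 mice 30.1, 33.3 and 40.4 CPM. The 8 libraries other than Z2754 thus spanned 22.5 to 63.1 CPM with all groups mixed. mt-Atp6 and mt-Atp8, the membrane subunits of complex V made from overlapping reading frames, followed the same course, with mt-Atp6 at 1489 and 1939 CPM in the other wildtype mice, 13523 CPM in Z2754 and 1744 to 5104 CPM in all 6 leukemias.

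mt-Co1, the catalytic subunit of complex IV, was the most abundant by reads and behaved otherwise. It stood at 9132, 9312 and 26992 CPM in wildtype, 12717, 15030 and 30388 CPM in Eµ-MTCP1 and 12065, 12884 and 15212 CPM in Eµ-TCL1 mice. All 6 leukemias lay above Z2755 and Z2785, and only Z2754 made the groups overlap. The same held for mt-Co3, at 7498, 7799 and 18837 CPM in wildtype, 9363 to 23807 CPM in Eµ-MTCP1 and 8562 to 12498 CPM in Eµ-TCL1 mice, and for mt-Cytb of complex III, at 3085, 3502 and 9273 CPM, 4089 to 7914 CPM and 3654 to 4177 CPM. It also held for mt-Co2, at 2487 and 3010 CPM in Z2755 and Z2785 and at least 3485 CPM in the leukemias. For mt-Nd4 these values were 1692, 1617 and at least 1880 CPM. Log2 fold changes in Eµ-MTCP1 mice were 0.36 (SE 0.46) for mt-Co1, 0.40 (SE 0.44) for mt-Co3 and 0.03 (SE 0.42) for mt-Cytb. In Eµ-TCL1 mice they were -0.18, -0.10 and -0.43 in the same order. In Eµ-MTCP1 mice they were 1.07, 0.97 and 0.71 without Z2754, and -0.18, -0.14 and -0.39 without Z2641. The composition of the mitochondrial reads shifted accordingly: mt-Co1 made up 26.9% of them in Z2754 and 30.6 to 35.4% in the other mice, and mt-Atp6 13.5% against 4.10 to 6.38%.

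**Figure D4:**
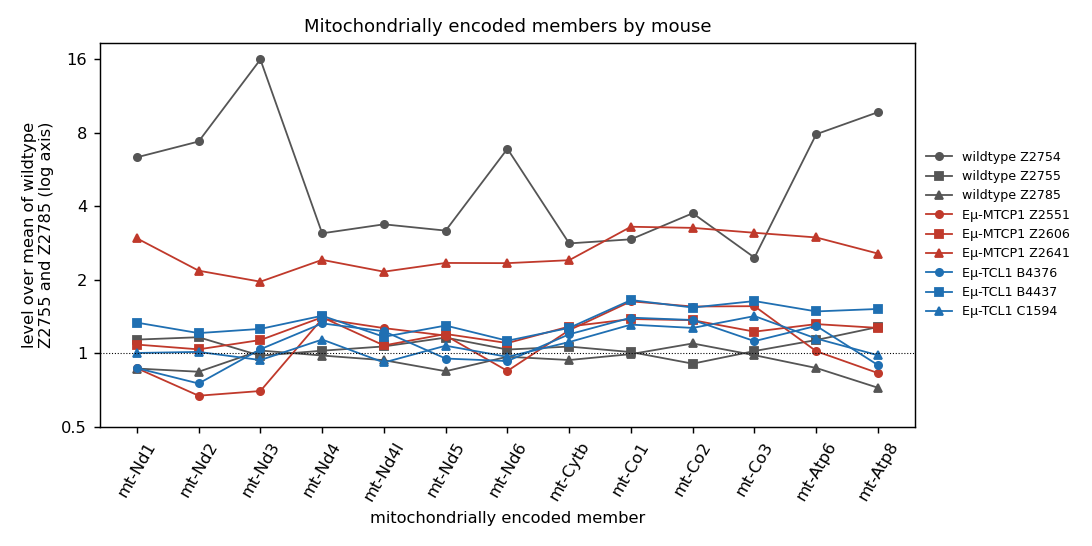
Level of each mitochondrially encoded member (horizontal axis) in each mouse, divided by the mean of wildtype mice Z2755 and Z2785 (vertical axis, log scale), with 1 line per mouse and gray, red and blue for wildtype, Eµ-MTCP1 and Eµ-TCL1. Mouse Z2754 peaks at mt-Nd3 (15.98) and mt-Atp8 (9.72), mouse Z2641 runs level between 1.96 and 3.30, and the other mice stay between 0.67 and 1.65.

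Other values of these 2 libraries are given without a reading of their part in the result, which was not tested. The granulocyte markers summed to 267 CPM and the 6 erythroid markers to 36.7 CPM in Z2754, within the range of the other libraries, and to 1601 CPM and 316 CPM in Z2641, the latter the highest of the 9. Summed T-cell markers were at 2.50 to 56.2 CPM in all libraries, with Cd8a at 0 reads in the 3 wildtype mice and in Z2606 and Z2641. Plasma cell markers summed to 803 CPM in Z2754 and 330 CPM in Z2641, within 101 to 2892 CPM over all libraries. For macrophages and monocytes the sums were 740 and 557 CPM, within 364 to 1447 CPM. For NK cells they were 32.7 and 24.3 CPM, within 3.08 to 105 CPM. B-cell markers were at 9099 CPM in Z2754 and 9364 CPM in Z2641. Assigned reads, at 7517648 and 6649925, were within the range of the rest. On the standard mouse reference, mitochondrial ribosomal RNA took 1.13% of the reads in Z2754 and 0.482% in Z2641, against 0.207 to 0.290% in the other 7 libraries.

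How the reads were assigned changed the mitochondrial share of reads far more than the nuclear share. The values above were counted on the reference of coding transcripts with human sequences. On the standard reference, which also holds near-identical copies of mitochondrial DNA in the nuclear genome, mt-Co1 kept 50.8 to 65.4% of its reads, the rest going to the copy Gm29216. mt-Atp6 kept 15.3 to 64.8% (copies Gm10925 and Gm28661), mt-Nd3 4.13 to 53.3% (Gm28438) and mt-Atp8 79.8 to 88.9%. The part of mt-Atp6 kept was lowest in Z2641 and highest in B4376, so values for mt-Atp6, mt-Nd3 and mt-Co1 on that reference are uncertain. mt-Nd1, mt-Nd2, mt-Nd4, mt-Nd5, mt-Nd6, mt-Cytb and mt-Co3 kept 99.8 to 101%, mt-Co2 93.1 to 100% and mt-Nd4l 103 to 111%. Total assigned reads also differed, at 11410231 to 14034949 per library on the standard reference against 6447542 to 8033303 on the first. Shares on the standard reference are thus of a larger total. In the deposited gene count table the 13 members held almost nothing, with 631 reads on mt-Co1 over all libraries against 1032410 by Salmon, and 6 of 13 could be tested. Under all 3 countings Z2754 had the highest share and Z2641 the next.

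**Figure D5:**
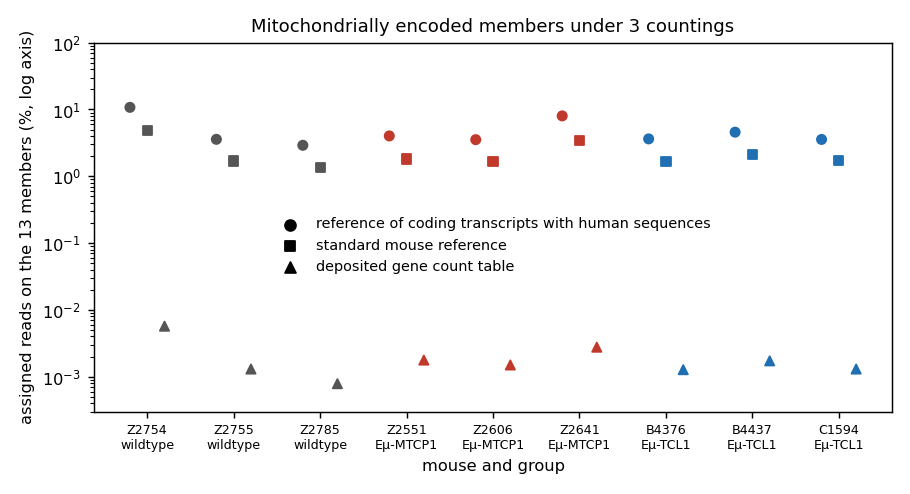
Share of assigned reads on the 13 mitochondrially encoded members (percent, log axis) in each mouse under 3 countings: Salmon on coding transcripts with human sequences (circles), Salmon on the standard mouse reference (squares) and the deposited gene count table (triangles). The level differs by orders of magnitude between Salmon and the gene table, whereas Z2754 is highest and Z2641 next under each.

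Between the 2 leukemias no member passed the test, against 0.0448% of all genes called in either direction. Among nuclear members 0 of 88 had an unadjusted p under 0.05, against 6.42% of all genes, and DESeq2 also called 0. Of the 88, 31 lay above 0, against 49.7% of all genes; with library size only it was 47, against 59.97%. The 3 highest in Eµ-TCL1 relative to Eµ-MTCP1 mice were the assembly factors Ndufaf5 (log2 fold change 0.40, SE 0.28), Ndufaf7 (0.35, SE 0.24) and Ndufaf3 (0.31, SE 0.23). The 3 lowest were Cox6b2 (-0.91, SE 1.27), Cox6a2 (-0.58, SE 0.999) and Cox4i1 (-0.39, SE 0.24). All 13 mitochondrially encoded members lay below 0, between -0.62 for mt-Nd1 and -0.23 for mt-Nd3, with 0 at an unadjusted p under 0.05; without Z2641 their median moved from -0.46 to -0.0059.

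Genes that serve the same pathway under other names were read from lists of assembly factors, the citric acid cycle, carriers, antioxidant enzymes and regulators. Among 7 antioxidant enzymes of the mitochondrion 2 rose in Eµ-MTCP1 and 3 in Eµ-TCL1 mice, against 5.49% and 5.07% of all genes; 5 and 6 of the 7 lay above 0, with medians of 0.27 and 0.39. Among 12 carriers and proteins of uncoupling and the outer membrane, 1 rose in each comparison, and 10 and 12 lay above 0 with medians of 0.30 and 0.26, close to the medians of the nuclear members. Txn2, the mitochondrial thioredoxin, went from 89.2, 99.4 and 101 CPM in wildtype to 226, 241 and 255 CPM with hMTCP1 and 165, 244 and 279 CPM with hTCL1. The log2 fold changes were 1.31 (adjusted p = 0.0033) and 1.25 (adjusted p = 0.00443), and it passed in all 18 alternatives of both comparisons. Gpx4, which reduces lipid peroxides, rose by 0.84 and 0.93 on the log2 scale (adjusted p = 0.0417 and 0.0278), and Sod2, the manganese superoxide dismutase, by 0.76 in Eµ-TCL1 mice (adjusted p = 0.0313). The Sod2 call rested on the sum over transcripts: with transcript length offsets its log2 fold change was 0.18 (adjusted p = 0.857).

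Among 17 genes of the citric acid cycle, 1 fell in both comparisons, against 3.99% and 4.13% of all genes. Higher calls were 1 and 2 of the 17, against 5.49% and 5.07% of all genes. Fh1, fumarate hydratase, stood at 144, 145 and 152 CPM in wildtype, 70.9, 84.0 and 93.2 CPM in Eµ-MTCP1 and 62.7, 80.1 and 102 CPM in Eµ-TCL1 mice. It fell by 0.83 and 0.85 on the log2 scale (adjusted p = 0.03 and 0.0276) with no overlap with wildtype. Suclg2, a subunit of succinyl-CoA ligase, rose by 0.66 in Eµ-TCL1 mice (adjusted p = 0.0468), a call that held in 2 of 18 alternatives and in none that left out a library.

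Of 23 tested assembly factors of complex IV, 3 rose in Eµ-MTCP1 mice and only Cox14 among them in Eµ-TCL1 mice, or 13.04% and 4.35%, where 5.49% and 5.07% of all genes rose. Cmc2 rose by 1.57 (adjusted p = 0.021), Sco2, a copper chaperone, by 0.99 (adjusted p = 0.0307) and Cox14 by 0.86 (adjusted p = 0.0416) in Eµ-MTCP1 mice, and Cox14 by 0.91 (adjusted p = 0.0334) in Eµ-TCL1 mice. Cyc1, cytochrome c1 of complex III, rose by 0.73 in Eµ-MTCP1 mice (adjusted p = 0.0328), and Ucp2, a carrier of the inner membrane, from 605 to 859 CPM in wildtype to 1124 to 1605 CPM in Eµ-MTCP1 and 1206 to 1744 CPM in Eµ-TCL1 mice (adjusted p = 0.0283 and 0.0187). The calls on these pathway genes, other than those of Txn2, were lost without wildtype mouse Z2754 (adjusted p of up to 0.147) and likewise without Z2755 (up to 0.155). In the 9 settings that keep every library, the calls of Txn2 and those of Gpx4 and Ucp2 in Eµ-TCL1 mice passed throughout, and each of the others was lost in at least 1.

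Lists that held 0 calls were the assembly factors of complexes I, II, III and V, the alternative routes of electron entry, the regulators of mitochondrial biogenesis and the genes for transcription and upkeep of mitochondrial DNA. Among 15 regulators of biogenesis, 2 lay above 0 in Eµ-MTCP1 and 5 in Eµ-TCL1 mice, with 3 and 2 lower at an unadjusted p under 0.05, against 11.5% and 11.9% of all genes. Among 23 genes for transcription and upkeep of mitochondrial DNA, 10 and 13 lay above 0, with 1 higher at an unadjusted p under 0.05 in each comparison and 3 and 1 lower, where 13.5% and 13.2% of all genes were higher and 11.5% and 11.9% lower.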

How the data were processed

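RNA of splenic B cells from 9 mice, 1 library a mouse and 3 mice a group, was sequenced; the labels name SMARTer, Nextera XT and TruSeq stranded kits. Groups were taken from the deposited transgene labels. The authors ran Salmon and deposited its estimated counts of each transcript, once on a reference of coding transcripts with human sequences and once on a standard mouse reference. The authors deposited Salmon's TPM beside them, in which length is taken into account. A table of whole counts per gene was deposited too. Normalized values on a log2-like scale were made by the authors with DESeq2 and were used here for the transgenes only. Their fold changes, Wald statistics and p-values were not used, nor was a filtered version of the gene count table that leaves out the mitochondrially encoded genes. The submitters' processing notes name CASAVA 1.8.2, HISAT2 2.0.6, Subread, featureCounts, Salmon 1.0.0, DESeq2 and GRCm38.p4.

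Estimated counts were summed per gene through GENCODE M21, which left out 442 transcripts with 0.190 to 0.291% of the reads, and rounded. They were filtered by filterByExpr, scaled by TMM (factors 0.9115 to 1.178) and tested two-sided with glmQLFit and glmQLFTest of edgeR 4.0.16 under R 4.3.3. The fit held the 9 libraries together and a mean for each of the groups, with no covariate. P-values were adjusted by Benjamini-Hochberg over the 11165 genes tested. CPM are TMM-scaled, and SE is the log2 fold change over the square root of F. The fit was tested on simulated data. There are 18 alternatives, among them DESeq2 1.42.0: 9 that leave out a library and 9 other settings. Precision rests on 3 mice a group; p-values measure the spread between mice.

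Members and lists were chosen with earlier results of these data known. Named were all mitochondrially encoded members, nuclear members that passed the test, the 5 highest by TPM, the isoforms of complex IV and subunit c, the 3 largest differences of each sign between the leukemias, and pathway genes that passed, up to 4 per list, comparison and direction. 1 gene in a list of 7 nuclear copies of mitochondrial DNA, Gm11808, had been listed in error and was left out. A pathway list is given in part, since not every result of it is reported here.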

Additional observations from a re-analysis of the deposited data

How the results depend on the processing

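No paired analysis was possible because each library came from a different mouse and the labels name no pairs between groups. The number of nuclear members called varied: in Eµ-MTCP1 mice 5 became 15 with DESeq2 (17.05%, against 8.36% of all genes) and 3 with library size only (3.41%, against 3.50%). In Eµ-TCL1 mice 3 became 8 with DESeq2 (9.09%, against 8.28%), 8 with the deposited gene count table (9.20%, against 5.83%), 5 on the standard mouse reference (5.62%, against 5.31%) and 5 with transcript length offsets (5.68%, against 4.93%). Leaving out 1 library at a time gave 1 to 10 and 0 to 4 calls, the most without wildtype Z2785 and the fewest without Z2755, for Eµ-MTCP1 also without Z2551 and for Eµ-TCL1 also without Z2754, which left 2 in Eµ-MTCP1 mice. The number of mitochondrially encoded members called was 0 in the 17 alternatives that keep these genes. Mean shares of reads on them were 0.00259, 0.00201 and 0.00143% in wildtype, Eµ-MTCP1 and Eµ-TCL1 mice in the gene count table, and 2.64, 2.30 and 1.83% in the same order on the standard reference. The nuclear mean share was 1.34% in Eµ-MTCP1 mice in the gene count table, and 1.19 and 1.38% in wildtype and Eµ-MTCP1 mice with immunoglobulin genes left out of the total. Signs turned in no alternative for a gene that had passed the test. With library size only, log2 fold changes were -0.0027 (Atp5g3), -0.084 (Cox6b2), -0.12 (Ndufa4), -0.085 (Ndufaf3), -0.12 (mt-Co2), -0.20 (mt-Cytb) and -0.20 (mt-Nd4) in Eµ-MTCP1 mice and -0.014 (Cox7a2), -0.00047 (Ndufa4) and -0.050 (Ndufaf7) in Eµ-TCL1 mice. The gene count table gave -0.090 for Cox6b2, -0.33 for mt-Co3 and -0.18 for mt-Cytb in Eµ-MTCP1 mice. The standard reference gave -0.079 for Cox6b2 in Eµ-MTCP1 mice and 0.53 for mt-Atp6 between the leukemias. Transcript length offsets gave -0.16 for Cox6b2 and 0.14 for mt-Nd5 in Eµ-MTCP1 mice and 0.034 for mt-Co3 in Eµ-TCL1 mice. With 1 library left out at a time, the log2 fold changes whose sign turned ranged in Eµ-MTCP1 mice from -1.56 to 0.82 for mt-Atp6, -1.96 to 0.63 for mt-Atp8, -0.18 to 1.07 for mt-Co1, -0.45 to 1.04 for mt-Co2, -0.14 to 0.97 for mt-Co3, -0.39 to 0.71 for mt-Cytb, -1.57 to 0.71 for mt-Nd1, -1.93 to 0.37 for mt-Nd2, -2.79 to 0.33 for mt-Nd3, -0.34 to 0.79 for mt-Nd4, -0.67 to 0.58 for mt-Nd4l, -0.59 to 0.65 for mt-Nd5, -1.67 to 0.51 for mt-Nd6, -0.31 to 1.55 for Cox6b2, -0.018 to 0.20 for Ndufa4 and -0.013 to 0.36 for Ndufaf3. In Eµ-TCL1 mice they ranged from -1.79 to 0.38 for mt-Atp6, -2.28 to 0.17 for mt-Atp8, -0.47 to 0.53 for mt-Co1, -0.84 to 0.47 for mt-Co2, -0.35 to 0.47 for mt-Co3, -0.71 to 0.24 for mt-Cytb, -1.81 to 0.086 for mt-Nd1, -3.02 to 0.099 for mt-Nd3, -0.69 to 0.36 for mt-Nd4, -1.01 to 0.13 for mt-Nd4l, -0.97 to 0.14 for mt-Nd5, -0.024 to 0.38 for Cox4i1, -1.23 to 0.63 for Cox6b2 and -0.013 to 0.26 for Ndufaf7. Between the leukemias they ranged from -0.72 to 0.16 for mt-Atp6, -0.76 to 0.10 for mt-Atp8, -0.92 to 0.12 for mt-Nd1, -0.70 to 0.21 for mt-Nd2, -0.52 to 0.22 for mt-Nd3 and -0.77 to 0.041 for mt-Nd6. The cause of these changes was not tested. Reads per library limit the members under 10 reads, and 3 mice a group limit the rest.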
